A study of Mus musculus with 16 samples.

Results

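Crot, which encodes carnitine octanoyltransferase, and 9 further genes of fatty acid oxidation (Crat, Cpt1a, Cpt2, Slc25a20, Acadm, Acadl, Acadvl, Hadha and Hadhb) were examined for open chromatin in mouse CD8+ T cells. They are 10 of the 21938 protein-coding genes annotated on the autosomes, X and Y in GENCODE M21 (GRCm38). Crot was chosen because of its measured peaks in TM cells, where its promoter was among the strongest peaks of the TPdh-/- libraries. Its values in comparisons that use TM libraries are therefore a description and carry no test. The other 9 genes were chosen by pathway.

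The data are ATAC-seq peak lists of 16 libraries, 4 in each of 4 groups. ATAC-seq marks chromatin that a transposase can enter, and a peak is a stretch where more fragments pile up than the surroundings predict. Wild-type (WT, TPdh+/+) and TPdh-/- cells were grown into effector cells (TE, with IL-2) or memory cells (TM, with IL-15) after activation of OT-I cells with OVA peptide. TPdh-/- cells lack Pdha1, the E1 alpha subunit of the pyruvate dehydrogenase complex, after crossing of a conditional Pdha1 allele with a CD4-Cre transgene, which acts in T cells. Mice of both sexes were used, and whether WT mice carried Cre was not given in the sources used here. Which libraries came from separate animals was not given either, so the spread between libraries may in part be technical. TE and TM are cells made in culture, and each group was taken from the sample titles.

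Fatty acids enter mitochondria as carnitine esters. Cpt1a on the outer membrane makes the long-chain ester, Slc25a20 carries it across the inner membrane, and Cpt2 returns the acyl group to coenzyme A. Acadvl, Acadl and Acadm then begin each round of beta-oxidation on very-long, long and medium chains, and Hadha and Hadhb form the trifunctional protein that completes the round for long chains. Crot acts in peroxisomes, where it joins medium-chain acyl groups to carnitine so that they can leave for mitochondria, and Crat does the same for acetyl groups. The pathway feeds acetyl-CoA to the tricarboxylic acid cycle by a route that does not pass through pyruvate dehydrogenase, and memory CD8+ T cells are known to use it.

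A promoter peak here has its summit within 1000 bp of any annotated start of the gene, and a gene is held by a library when a peak overlaps the gene or its flanks of 5000 bp. Strength is the fold enrichment that the authors deposited for each peak, which compares the fragments piled up at the summit with those that the surroundings predict, after adding 1 to each. The lists held 2290 to 86637 peaks. Background coverage, the number of fragments over an average base and the measure of depth here, was 0.636 to 1.55 in WT TE and 0.354 to 0.572 in WT TM. In TPdh-/- it was lower, 0.173 to 0.445 in TE and 0.186 to 0.261 in TM. The share of protein-coding genes with a promoter peak ran from 4.66% in WT TM replicate 3 and 7.89% in WT TM replicate 2 to 33.6% in TPdh-/- TM replicate 4. Values without both WT TM libraries, an alternative chosen after the data were seen, are given with the comparisons of the 10 genes that use WT TM. WT TM replicates 1 and 2 had nearly the same background coverage, 0.355 and 0.354, and 26.9% and 7.89% of genes with a promoter peak. The weakest listed peaks rest on 3 to 9 fragments at the summit depending on the library, so a gene without a peak is one that was not detected in that library. Of the T cell genes, Cd8b1 had a promoter peak in 8 libraries, Cd3d and Lck in 6, Ptprc in 4 and Cd3g in 3. Cd8a and Cd3e had one in 2 and Cd2 in 0. Of the B cell genes Cd79a had one in 0 and Ms4a1 in 2. Of the myeloid genes Csf1r had one in 4, Itgam in 1 and Lyz2 in 0. Peaks in or near Cd79a and Ms4a1 were listed in 4 to 7 libraries and at the myeloid genes Lyz2, Csf1r and Itgam in 2 to 11, against 4 to 14 for the 8 T cell genes, so these lists do not set CD8 cells apart from other cells by markers.

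The reference sequence under the promoter peaks that carry the results is shown because peak position and base composition can be read from it. It comes from RefSeq for GRCm38.p6, is written 5′ to 3′ on the strand of the gene and leaves out annotated untranslated exon sequence. Capitals mark matches, on either strand, to the motifs searched: the GC box GGGCGG, the ETS core CCGGAAG, the box with the letters CCAAT, the E-box CACGTG, the CRE half-site TGACG, the NRF1 core GCATGCG, the nuclear receptor half-site AGGTCA, its longer ERR-type form AAGGTCA, and DR1, which is AGGTCA repeated after 1 base. The peak of Crot covered chr5:8996665-8997443 over all libraries. It spans the first exon, chr5:8997104-8997324, which is untranslated, and the bases to both sides. The upstream stretch is chr5:8997325-8997443 and the beginning of the first intron is chr5:8996804-8997103, both on the minus strand. Part of this intron is exon in a retained-intron transcript of Crot, and most of the upstream stretch is annotated as the noncoding gene Gm27941.
Crot upstream: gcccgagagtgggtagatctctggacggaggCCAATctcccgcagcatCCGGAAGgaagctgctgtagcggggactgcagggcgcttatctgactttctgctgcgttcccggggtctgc
Crot first intron: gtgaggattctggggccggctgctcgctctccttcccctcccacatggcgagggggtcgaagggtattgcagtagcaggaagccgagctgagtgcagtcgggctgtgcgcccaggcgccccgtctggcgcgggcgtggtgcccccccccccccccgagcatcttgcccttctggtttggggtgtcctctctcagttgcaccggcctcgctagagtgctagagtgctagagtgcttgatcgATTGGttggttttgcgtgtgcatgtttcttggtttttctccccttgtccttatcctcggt
For Acadm, whose promoter peak was found in the most libraries, the stretch is chr3:153944633-153944861 on the minus strand. For Slc25a20, which had a promoter peak in every WT TE library, it is chr9:108661830-108662087 on the plus strand.
Acadm upstream: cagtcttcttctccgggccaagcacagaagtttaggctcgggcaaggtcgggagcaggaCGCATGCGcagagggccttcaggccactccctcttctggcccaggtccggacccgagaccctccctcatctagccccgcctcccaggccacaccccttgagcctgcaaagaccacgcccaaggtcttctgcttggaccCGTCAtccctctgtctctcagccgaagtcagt
Slc25a20 upstream: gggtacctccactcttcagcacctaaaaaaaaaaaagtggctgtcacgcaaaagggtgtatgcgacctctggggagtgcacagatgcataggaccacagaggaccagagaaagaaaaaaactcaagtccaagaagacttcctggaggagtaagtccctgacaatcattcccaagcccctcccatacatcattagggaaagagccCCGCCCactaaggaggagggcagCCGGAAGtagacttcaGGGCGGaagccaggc
Hadha and Hadhb are transcribed away from each other from starts 86 bp apart, and the bases between them, chr5:30155163-30155247 on the plus strand, serve both.
Hadha-Hadhb between starts: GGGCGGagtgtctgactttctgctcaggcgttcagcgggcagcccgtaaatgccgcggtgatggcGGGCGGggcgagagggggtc

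The upstream stretch of Crot held 1 CCAAT and 1 ETS core, and the intron stretch held 1 CCAAT on the opposite strand. The stretch of Acadm held the NRF1 core on both strands in overlapping letters and 1 CRE half-site. That of Slc25a20 held 2 GC boxes and 1 ETS core, and the bases between Hadha and Hadhb held 2 GC boxes. In windows of 300 bases centred on the start of the gene, GC boxes were found in 8 of the 10 genes and in 45.5% of 21934 protein-coding genes, ETS cores in 3 and in 11.4%, CCAAT in 1 (Crot) and in 36.6%, CRE half-sites in 2 and in 24.2%, and E-boxes in 1 (Crat) and in 7.44%. The NRF1 core was found in 0 of the 10 windows and in 4.16% of all genes, since the match at Acadm lies farther upstream. The half-site AGGTCA was in 4 of the 10 genes (Acadvl, Cpt1a, Hadha and Hadhb) and in 13.8% of all, the ERR-type form, which contains it, in 2 (Hadha and Hadhb, whose windows overlap) and in 3.74%, and DR1 in 0 and in 0.0593%. GC content in these windows was 52.7% for Cpt1a to 81.0% for Acadl, with 68.3% for Crot, beside a median of 58.0% over all genes. These matches describe letters in the sequence and were not tested.

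Crot lies on chromosome 5 from 8966033 to 8997324 on the minus strand (ENSMUSG00000003623.4). In TPdh-/- TM its promoter peak had a fold enrichment of 8.11, 8.83, 9.81 and 14.5 in replicates 1 to 4, with a −log10 q-value of 8.94, 9.73, 11.8 and 22.5. All 4 TPdh-/- TM libraries listed it. In WT TM the peak was listed in replicate 4 alone, with a fold enrichment of 5.43 and a −log10 q-value of 4.15. WT TM replicates 1, 2 and 3 listed no promoter peak at Crot, and replicates 2 and 3 had the lowest shares of genes with a promoter peak of the 16 libraries. Without WT TM replicates 2 and 3, an alternative chosen after the data were seen, the counts are 4 of 4 and 1 of 2.

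In WT TE the Crot promoter peak was listed in replicates 1, 2 and 4, with a fold enrichment of 4.63, 5.45 and 6.73 and a −log10 q-value of 3.07, 3.90 and 9.0. In TPdh-/- TE it was listed in 0 of 4 libraries, which held 32906 to 78635 peaks in all. In replicates 1 and 2 of these, 12.4% and 8.17% of genes had a promoter peak, in replicate 2 nearly as few as in WT TM replicate 2, and in replicates 3 and 4 it was 26.4% and 28.1%. The only peak at Crot in TPdh-/- TE was in replicate 4, 18358 bp inside the gene, with a fold enrichment of 5.06. By fold enrichment every TPdh-/- TM value lay above every value in the other groups. By −log10 q-value the groups overlapped, since WT TE replicate 4 lay above TPdh-/- TM replicate 1. Among listed values of fold enrichment those of TPdh-/- TM were highest, and the 1 value of WT TM lay among those of WT TE. TPdh-/- TE had no listed value and so has no place in this order.

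**Figure D1:**
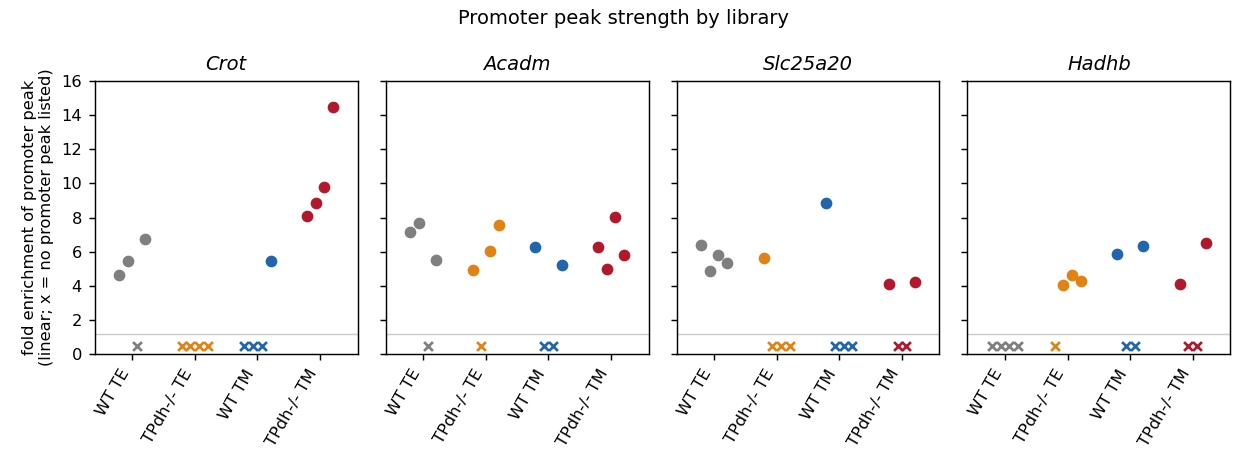
Fold enrichment of the strongest promoter peak (linear scale) of Crot, Acadm, Slc25a20 and Hadhb in each of the 16 libraries. Each point is 1 library, ordered within a group by replicate number, and crosses below the line are libraries that listed no promoter peak. The 4 TPdh-/- TM points of Crot, from 8.11 to 14.5, lie above all its other points, while the groups of Acadm overlap.

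The number of fragments at the summit separates these groups less than the fold enrichment does. At the Crot summit it was 9, 11, 13 and 21 in TPdh-/- TM replicates 1 to 4, 10, 8 and 20 in WT TE replicates 1, 2 and 4, and 8 in WT TM replicate 4. These pileups overlap between groups. Divided by the background coverage of the library, they became 41.0, 42.1, 56.5 and 113 in TPdh-/- TM, 8.85, 12.6 and 12.9 in WT TE and 22.0 in WT TM, which do not overlap. Background coverage was 0.186 to 0.261 in TPdh-/- TM, below every library of WT TE and WT TM, so it moved with this difference. Its part in the difference was not tested.

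Position within the list of a library does not use the scale of the fold enrichment. By −log10 q-value the Crot peak stood at percentile 97.6, 99.2, 99.1 and 99.8 of its list in TPdh-/- TM replicates 1 to 4. It stood at percentile 76.7 in WT TM replicate 4 and at 35.4, 70.7 and 90.2 in WT TE replicates 1, 2 and 4. When each list was cut to its 2290 peaks of highest −log10 q-value, the length of the shortest list, Crot stayed in all 4 TPdh-/- TM lists and in 1 WT TE list and dropped out of the others. The percentiles come from lists of unequal length, and by rank the groups overlap. Its rank, averaged over ties, was 1573.5, 690, 557.5 and 113.5 in TPdh-/- TM replicates 1 to 4 and 520.5 in WT TE replicate 4, whose list is short and which stood ahead of 3 of these 4. The closest rank outside the limit was 5587, in WT TE replicate 1. These lists were the ones on which Crot had been chosen.

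Summits of the Crot promoter peak lay 130 to 508 bp inside the gene from its 5′ end, with a median of 169 bp over 8 libraries. In 5 libraries the summit was in the first exon and in 3 (WT TE replicate 1 and TPdh-/- TM replicates 2 and 4) in the first intron, 366 to 508 bp from the 5′ end. The strongest peak of all, in TPdh-/- TM replicate 4, was among the intronic ones at 452 bp. The start of the short noncoding gene Gm27941 lies 103 bp upstream of that of Crot on the same strand, and Gm37153 is annotated on the opposite strand across the first exon, so the peak cannot be given to Crot alone. Away from the promoter Crot had 10 peaks over all libraries, 5 in the gene and 5 in the flanks, and their median fold enrichment was 4.09 against 7.42 for the promoter peaks. None of these other places was shared by a second library of the 16.

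**Figure D2:**
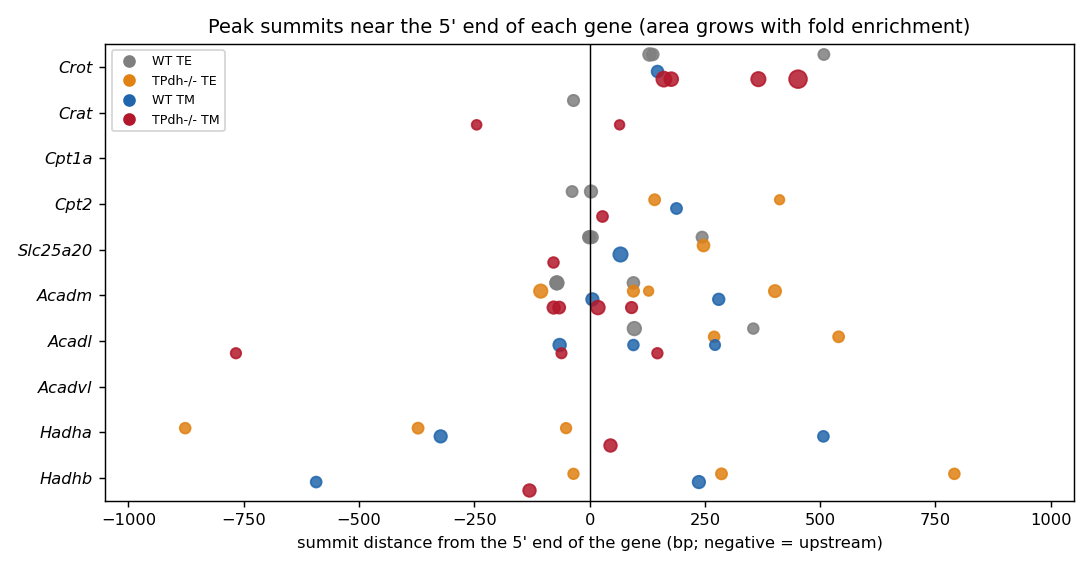
Distance of peak summits from the 5′ end of each gene in bp (negative is upstream) for peaks within 1000 bp, with 1 point per peak, coloured by group and larger for a higher fold enrichment. The summits of Crot lie 130 to 508 bp inside the gene, and Cpt1a and Acadvl have no summit within 1000 bp of their 5′ end.

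Acadm, the medium-chain acyl-CoA dehydrogenase (chromosome 3, 153922357 to 153944632, minus strand), had a promoter peak in 12 of 16 libraries, the most of the 10 genes. Its fold enrichment was 7.17, 7.69 and 5.54 in WT TE replicates 1, 2 and 4, and 4.93, 6.01 and 7.57 in TPdh-/- TE replicates 1, 3 and 4. In WT TM it was 6.26 and 5.24 in replicates 1 and 4, and in TPdh-/- TM it was 6.25, 5.01, 8.0 and 5.82 in replicates 1 to 4. The groups overlapped throughout, and the libraries without the peak were spread over WT TE, TPdh-/- TE and WT TM. No comparison had an Acadm peak in all 8 libraries. Without TPdh-/- TE replicate 2, the mean log2 fold enrichment differed by 0.02 between TPdh-/- TM and TPdh-/- TE (two-sided exact permutation test, p = 0.83, adjusted p = 1 over 319 genes, n = 4 and 3), well within the spread between libraries.

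Crot and Acadm can be set side by side within a library. In TPdh-/- TM the fold enrichment of Crot was higher than that of Acadm in 4 of 4 libraries. Over all 8 libraries with both peaks it was higher in 6. The exceptions were WT TE replicates 1 and 2, where Crot had 4.63 and 5.45 and Acadm 7.17 and 7.69. Of the 61 promoter peaks of the other 9 genes, taking the strongest of a gene in each library, 1 was stronger than the weakest Crot peak in TPdh-/- TM, and that was Slc25a20 in WT TM replicate 1. Crot was chosen for its strong peaks in these TPdh-/- TM lists, so these counts follow from that choice and are a description.

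**Figure D3:**
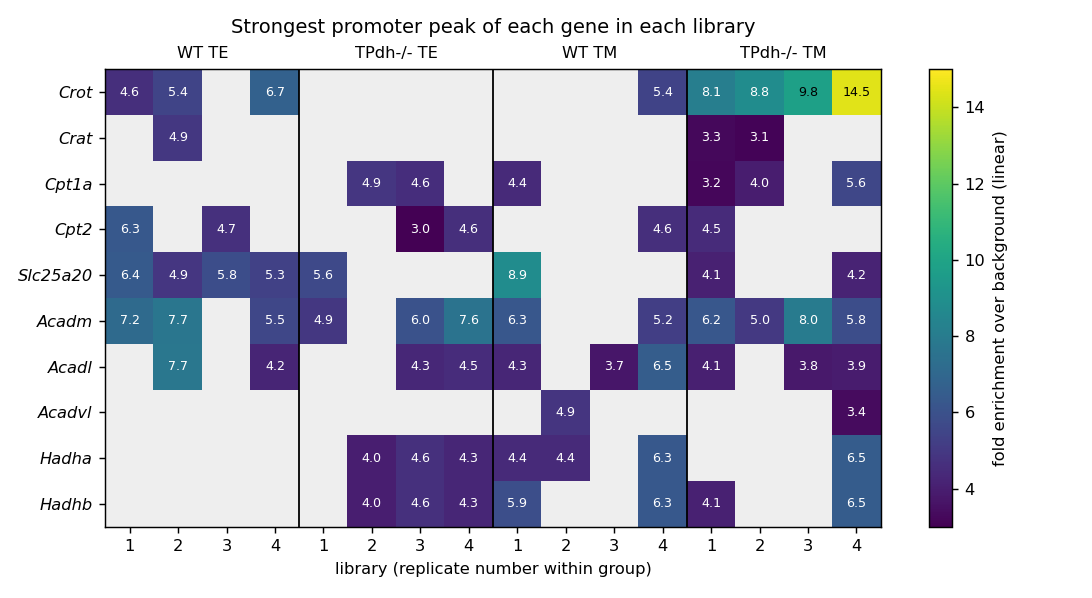
Fold enrichment (linear scale) of the strongest promoter peak of each of the 10 genes (rows) in each of the 16 libraries (columns, by group and replicate). Grey cells are libraries with no promoter peak listed. Acadm is filled in 12 of 16 columns, Crot is highest in TPdh-/- TM, and WT TM replicates 2 and 3 have 2 and 1 filled cells.

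The genes of carnitine transport behaved separately. Slc25a20, the carnitine-acylcarnitine translocase (chromosome 9, 108662088 to 108684641, plus strand), had a promoter peak in all 4 WT TE libraries, with a fold enrichment of 6.41, 4.89, 5.83 and 5.34 in replicates 1 to 4. It had one in TPdh-/- TE replicate 1 (5.64), in WT TM replicate 1 (8.86) and in TPdh-/- TM replicates 1 and 4 (4.10 and 4.21). The peak in TPdh-/- TM replicate 1 lay near an internal start, 10115 bp inside the gene. Near the 5′ end, the 1 peak in TPdh-/- TM, in replicate 4, was weaker than each of the 4 in WT TE. Slc25a20 is among the genes whose promoter peaks were in more WT TE than TPdh-/- TE libraries, 4 against 1 (two-sided Fisher's exact test, p = 0.143, adjusted p = 1). Of all genes, 2.10% had a promoter peak in at least 3 more WT TE libraries. By the gene and its flanks Slc25a20 was held in 4 WT TE and 2 TPdh-/- TE libraries.

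Cpt2, the inner-membrane carnitine palmitoyltransferase (chromosome 4, 107903981 to 107923610, minus strand), had a promoter peak in 6 libraries. Its fold enrichment was 6.32 and 4.66 in WT TE replicates 1 and 3, 3.02 and 4.63 in TPdh-/- TE replicates 3 and 4, 4.61 in WT TM replicate 4 and 4.50 in TPdh-/- TM replicate 1. No group stood apart. Cpt1a, the outer-membrane enzyme, spans 63400 bp (chromosome 19, 3322334 to 3385733, plus strand) and had the most peaks of the 10 genes, 31, of which 18 were in the gene away from any start. All its promoter peaks were at internal annotated starts, from 1142 to 53888 bp inside the gene, in 2 TPdh-/- TE, 1 WT TM and 3 TPdh-/- TM libraries, with a fold enrichment of 3.17 to 5.55 over 7 peaks. Per 10000 bp searched, Cpt1a had 4.22 peaks against 4.36 for Crot and 5.27 for Acadm, so its count was not high for its length. The place shared by the most libraries away from a promoter, over all 10 genes, was in the 3′ flank of Cpt1a at chr19:3388683-3389219, in 4 libraries (2 WT TE, 1 TPdh-/- TE and 1 WT TM) with a fold enrichment of 3.67 to 4.71, 56 bp from a start of Tesmin.

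Crat, the carnitine acetyltransferase (chromosome 2, 30400471 to 30415813, minus strand), had a promoter peak in 3 libraries, WT TE replicate 2 (4.93) and TPdh-/- TM replicates 1 and 2 (3.28 and 3.11). It starts 226 bp from Ptpa on the other strand, so its peaks cannot be given to Crat alone. Both peaks in TPdh-/- TM rested on 3 fragments at the summit, the lowest number among the promoter peaks of the 10 genes. Of the 2 carnitine acyltransferases outside the Cpt family, Crot and Crat, TPdh-/- TM libraries thus listed Crot in all 4 at a fold enrichment of 8.11 or more and Crat in 2 at 3.28 or less. Crot was chosen on these libraries, so this contrast is a description.

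Among the acyl-CoA dehydrogenases, Acadl (chromosome 1, 66830839 to 66863277, minus strand) had a promoter peak in 10 libraries. Its fold enrichment was 7.74 and 4.23 in WT TE replicates 2 and 4, 4.34 and 4.55 in TPdh-/- TE replicates 3 and 4, 4.27, 3.72 and 6.55 in WT TM replicates 1, 3 and 4, and 4.06, 3.80 and 3.92 in TPdh-/- TM replicates 1, 3 and 4. The values overlapped between groups, and those of TPdh-/- TM were among the lowest. The peak of Acadl was the only promoter peak of the 10 genes in WT TM replicate 3. Acadvl (chromosome 11, 70010183 to 70015411, minus strand) had no peak within 1000 bp of its 5′ end. Its 2 promoter peaks, in WT TM replicate 2 (4.85) and TPdh-/- TM replicate 4 (3.37), were at internal starts. A peak of fold enrichment 9.23 in WT TM replicate 1 had its summit at -4789 bp from the 5′ end, nearer to starts of Dlg4.

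Hadha and Hadhb (chromosome 5, 30118304 to 30155162 on the minus strand and 30155248 to 30184593 on the plus strand) are transcribed from one bidirectional promoter, and the 6 peaks within 1000 bp of their 5′ ends are counted for both genes. In TPdh-/- TE these had a fold enrichment of 4.02, 4.64 and 4.30 in replicates 2, 3 and 4. In WT TM it was 4.43 and 6.32 in replicates 1 and 4, and in TPdh-/- TM it was 6.51 in replicate 4. In WT TE 0 of 4 libraries listed one. They are not 1 recurrent peak. Those of TPdh-/- TE replicates 2 and 3, WT TM replicate 4 and TPdh-/- TM replicate 4 join into the stretch chr5:30155045-30155655, and those of TPdh-/- TE replicate 4 and WT TM replicate 1 lie outside it, 736 and 307 bp from the nearest annotated start. Further promoter peaks were at internal starts, for Hadha in WT TM replicate 2 (4.43, at 27212 bp inside the gene) and for Hadhb in WT TM replicate 1 (5.88, at 23743 bp) and TPdh-/- TM replicate 1 (4.10 and 3.28, at 22873 and 22363 bp). Counted within 1000 bp of the 5′ end alone, each gene had a peak in 3 TPdh-/- TE, 2 WT TM, 1 TPdh-/- TM and 0 WT TE libraries. The WT TE libraries, which had the highest background coverage, thus had no peak at this promoter and 4 of 4 had one at Slc25a20. The part of background coverage in these differences was not tested.

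TPdh-/- TM was compared with WT TM to ask whether loss of the pyruvate dehydrogenase complex changes open chromatin at these genes in memory cells. Over all protein-coding genes, 8.69% were held by at least 3 more TPdh-/- TM than WT TM libraries, and 0.191% by at least 3 more WT TM libraries. Of the 10 genes, 0 differed by that much in either direction, and of the 9 genes other than Crot 4 were held by more TPdh-/- TM libraries and 0 by more WT TM libraries, beside 62.0% and 9.0% of all genes. The median difference was 0 libraries for these 9 genes and 1 for all genes. By promoter peaks, 4.59% of all genes had a peak in at least 3 more TPdh-/- TM libraries and 0.137% in at least 3 more WT TM libraries, and of the 10 genes Crot alone did, with 4 against 1. That contrast chose Crot, and nothing is read from it. Without Crot, 4 of the other 9 genes had a promoter peak in more TPdh-/- TM libraries and 1 in more WT TM libraries, close to the 42.8% and 10.9% of all genes. These counts rest on WT TM replicates 2 and 3. Without both, and by shares of libraries, 1 of these 9 genes was held more often in TPdh-/- TM and 5 more often in WT TM, beside 38.7% and 22.2% of all genes, so the direction over the 9 genes turned. By promoter peaks it was then 3 and 4 of the 9 genes, beside 33.4% and 20.7%, and Hadha alone differed by 75 percentage points, with 1 of 4 TPdh-/- TM and 2 of 2 WT TM libraries, beside 2.35% of all genes in that direction.

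TPdh-/- TE was compared with WT TE to ask the same of effector cells. In all, 15.3% of genes were held by at least 3 more TPdh-/- TE libraries and 0.757% by at least 3 more WT TE libraries, and 0 of the 10 genes reached this difference in either direction. By promoter peaks the shares of all genes were 0.871% and 2.10%. Of the 10 genes, Hadha and Hadhb had a promoter peak in 3 TPdh-/- TE and 0 WT TE libraries, which are the same peaks, and Slc25a20 and Crot in more WT TE libraries, with 4 against 1 and 3 against 0. Each of these had a two-sided Fisher's exact p of 0.143 and an adjusted p of 1. With 4 libraries against 4 the smallest p this test can give is 0.0286, and none of the 21938 genes passed the adjustment. In this comparison 697 genes had an unadjusted p under the threshold of 0.05 by the gene and its flanks, none of them among the 10.

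In WT cells, TM were compared with TE. Here 7.17% of all genes were held by at least 3 more WT TM libraries and 1.26% by at least 3 more WT TE libraries. Of the 10 genes, Acadvl did so, with 3 WT TM and 0 WT TE libraries (two-sided Fisher's exact test, p = 0.143, adjusted p = 1), and its peaks were in 3 different places. By promoter peaks, 0.333% of all genes had at least 3 more WT TM libraries and 2.62% at least 3 more WT TE libraries. Hadha was in the first set, with 3 against 0, and Slc25a20 in the second, with 1 against 4 (p = 0.143 and adjusted p = 1 by Fisher's exact test for both). WT TM replicate 2, whose list has few promoter peaks, holds the Hadha peak at an internal start and an Acadvl peak, so both counts rest in part on it. Slc25a20 had no promoter peak in WT TM replicates 2 and 3, and without both its counts are 1 of 2 WT TM and 4 of 4 WT TE libraries. Without both, 3 of the 10 genes (Acadvl, Hadha and Hadhb) were held more often in WT TM by at least 75 percentage points, beside 17.2% of all genes. By promoter peaks these were then 2 (Hadha and Hadhb), beside 3.5% of all genes, and 0 genes differed by that much towards WT TE, beside 1.98%. These comparisons share libraries with those above.

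In TPdh-/- cells, 4.09% of all genes were held by at least 3 more TM than TE libraries and 0.784% by at least 3 more TE libraries. Of the 10 genes, Crot was in the first set, with 4 against 1. By promoter peaks the shares were 3.82% and 0.419%, and Crot was again in the first set, with 4 against 0. Crot had been chosen on the TPdh-/- TM libraries, so its counts here are a description. Of the other 9 genes, 6 had a promoter peak in more TM libraries and 3 in more TE libraries, beside 38.5% and 16.1% of all genes, and 0 differed by 3 or more. No gene of the 21938 had an adjusted p under 0.05 in any of the 4 comparisons, by the gene and its flanks or by the promoter. The smallest adjusted p was 0.890, in TPdh-/- TE against WT TE. Unadjusted, 61 to 697 genes fell under 0.05 in each comparison and by each measure.

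Promoter peaks were also counted over the 9 genes other than Crot, which was chosen on its own peaks. These genes had one in a median of 7 of 16 libraries against 2 for all protein-coding genes, and 3 of 9 had one in 8 or more libraries against 14.2% of all genes. Between 1 and 7 of the 9 genes had a promoter peak in a library, and in 15 of 16 libraries this share exceeded that of all genes. The exception was TPdh-/- TM replicate 3, with 2 of 9 genes (22.2%) and 29.0% of all genes. All genes include those silent in T cells, and Hadha and Hadhb count the same peaks, so this compares no matched set. Of the 69 promoter peaks of a gene in a library, Crot included, 25 rested on 5 or fewer fragments at the summit, and the median was 7.

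**Figure D4:**
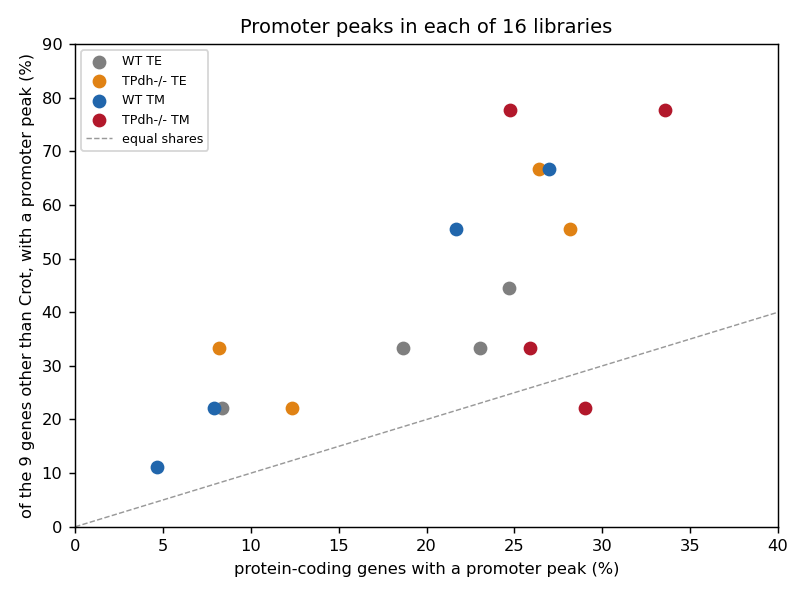
Share of the 9 genes other than Crot with a promoter peak (vertical axis, %) against the share of all protein-coding genes with one (horizontal axis, %), with 1 point per library, coloured by group. The dashed line marks equal shares. Of the 16 points 15 lie above it, and TPdh-/- TM replicate 3 lies below, with 22.2% of the 9 genes and 29.0% of all genes.

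A wider list of 38 genes of fatty acid oxidation covers acyl-CoA synthetases, other carnitine and beta-oxidation enzymes, electron transfer, peroxisomal oxidation and regulators. Their promoters had a peak in a median of 5.5 libraries, and 12 of 38 in 8 or more. The peroxisomal genes had a median of 9 libraries and the acyl-CoA synthetases one of 4. Of the 38, 2 were held by at least 3 more TPdh-/- TM than WT TM libraries and 0 by more WT TM libraries. In TPdh-/- TE against WT TE the counts were 6 and 1, in WT TM against WT TE 3 and 0, and in TPdh-/- TM against TPdh-/- TE 3 and 0. The shares of all genes in the first direction were 8.69%, 15.3%, 7.17% and 4.09% in this order, and in the second 0.191%, 0.757%, 1.26% and 0.784%. By promoter peaks the counts were 2 and 0, 1 and 2, 0 and 1, and 3 and 1, beside 4.59% and 0.137%, 0.871% and 2.10%, 0.333% and 2.62%, and 3.82% and 0.419% of all genes. None passed the adjusted test.

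Several of those genes are regulators of the pathway. Esrra encodes ERR alpha, a nuclear receptor that acts on genes of fatty acid oxidation. It was held in 4 WT TE and 0 TPdh-/- TE libraries, and in 2 WT TM and 4 TPdh-/- TM libraries, and its promoter peak was in 4, 0, 2 and 1. The TE genotype difference of 4 against 0 had an exact Fisher p of 0.0286 and an adjusted p of 0.890, and 697 genes had a p that low in this comparison. Ppard, a lipid-activated nuclear receptor, was held in 3, 1, 2 and 4 libraries in the same order, and Ppargc1b, a coactivator, in 1, 4, 4 and 4. Esrra in TPdh-/- TM against TPdh-/- TE and Acsl6 in WT TM against WT TE also differed by 4 against 0, with the same unadjusted p and an adjusted p of 1 by the exact Fisher test. Among the enzymes, Acsl5 was held in 1, 4, 0 and 3, Acsl6 in 0, 3, 4 and 3, Cpt1c in 0, 3, 1 and 3, Hadh in 1, 3, 4 and 4, and Decr1 in 0, 2, 1 and 4. Etfa was held in 0, 3, 1 and 3, Etfb in 1, 4, 2 and 3, and the peroxisomal thiolase Acaa1a in 2, 1, 2 and 4. None of these differences passed the adjusted test.

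The genes whose promoter fold enrichment followed that of Crot most closely were found by Pearson's correlation over the 16 libraries of the log2 fold enrichment, taken as 0 where no promoter peak was listed. Among 9889 genes with a promoter peak in at least 3 libraries, Cryz and Tyw3, which share a promoter on chromosome 3, had r = 0.90. Zfp438 had r = 0.89, and Tmod3 and Gng5 r = 0.88. Each had a promoter peak in 4 of 4 TPdh-/- TM libraries. Of the other 9 genes of fatty acid oxidation, Acadm came closest with r = 0.55 and Crat had r = 0.44, while Hadha had r = -0.23. These points share libraries and their depth, and the genes were chosen for this likeness. Another 5 genes of 21937 had promoter peaks in as many libraries of each group as Crot (Ahsa1, Enoph1, Klf4, Ubxn8 and Vipas39), and 0 had them in exactly the same libraries.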

How the data were processed

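The authors trimmed reads with Trimmomatic, aligned them with BWA MEM (0.7.17) to GRCm38/mm10, removed ambiguous and blacklisted reads and called peaks with MACS2 (2.2.7.1) on read pairs in single libraries. A shift for the transposase cut was not given in the sources used here. Per peak the authors deposited a score, a fold enrichment (a ratio), a −log10 p-value, a −log10 q-value of at least 1.30 and a summit offset. These were used as deposited, without scaling between libraries, with Python 3.11.15 and scipy 1.17.1.

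Fold enrichment and p-value together fix the summit pileup, found as the nearest whole number. At least 99.96% of peaks in each library matched the deposited −log10 p-value within 0.01. The most frequent background value among the peaks of a library is its background coverage. The share of peaks at this value ran from 9.34% in WT TE replicate 3 to 65.5% in WT TM replicate 3. Scripts were tested on simulated data. No peak lay beyond the end of any of 21 GRCm38 chromosomes.

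The 10 genes, the wider list and the motifs were chosen with earlier results of these data known. All 10 genes are named. Wider-list genes are named where the number of libraries that hold them differs by at least 3 in a comparison, along with the 5 genes most like Crot. Fisher's exact test, two-sided and with Benjamini-Hochberg adjustment over 21938 genes, compared the number of libraries of 4 with a peak, and strength was compared by two-sided exact permutation of the libraries. Crot was among the genes adjusted over, but its p-values in comparisons with TM libraries are not reported. Alternatives were the gene body or promoter alone, the summit in place of any overlap, a −log10 q-value of at least 5, equal-sized lists of 2290 peaks, other measures of strength, leaving out each replicate and pairing by sample number. Intervals from read counts were not computed, since read totals were not analysed here. Of the marker genes, 1 is not reported here.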

Additional observations from a re-analysis of the deposited data

Results flagged for a closer look

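In WT TM, background coverage was 0.572 in replicate 3, and the other 3 libraries lay close together at 0.354 to 0.364. The gap to the nearest library was 0.956 of the range of the group, above Dixon's critical value for 4 samples. Chance marks about 1 group in 20 in this way, and 23 groups of values were looked at. In that library 1 of the 10 genes, Acadl, had a promoter peak, with a fold enrichment of 3.72, and Crot had none.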

How the results depend on the processing

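Genes counted as different between groups had shares of libraries with a peak that differed by at least 75 percentage points. By the gene and its flanks, 0 of the 10 genes did so in TPdh-/- TM against WT TM, 0 in TPdh-/- TE against WT TE, 1 in WT TM against WT TE (Acadvl) and 1 in TPdh-/- TM against TPdh-/- TE (Crot). In the first comparison the count became 1 by the gene body alone (Cpt1a), and 1 by the promoter alone, with a −log10 q-value of at least 5 or in equal-sized lists (Crot in each). In the second it became 2 by the gene body (Cpt1a and Hadhb), 4 by the promoter and 1 in equal-sized lists (Slc25a20), and 0 to 2 when 1 library was left out. Hadha and Hadhb came in without TPdh-/- TE replicate 1 or WT TE replicate 1, and Crot without TPdh-/- TE replicate 4 or WT TE replicate 3. In WT TM against WT TE it became 0 by the gene body, 2 by the promoter, 0 with the limit on q and 0 with a fold enrichment of at least 5, and 0 to 2 when 1 library was left out. In equal-sized lists it stayed 1, but with Acadm, in more WT TE libraries, in place of Acadvl. Acadvl dropped out without WT TM replicate 1, 2 or 4, and Hadha came in without WT TM replicate 3 or WT TE replicate 1. Without both WT TM replicates 2 and 3 the count was 3 (Acadvl, Hadha and Hadhb). In TPdh-/- TM against TPdh-/- TE it was 2 with a fold enrichment of at least 5 (Crot and Cpt1a) and 0 to 2 when 1 library was left out. Crot dropped out without TPdh-/- TE replicate 1, 2 or 3, and Acadvl came in without TPdh-/- TM replicate 3 or TPdh-/- TE replicate 3. The limit on fold enrichment and the loss of both WT TM libraries were chosen after the data were seen. The causes of these changes were not tested. The promoter difference of Crot in TPdh-/- TM against WT TM, the contrast that chose Crot, was 75 percentage points. It was 50 to 100 under its alternatives, and nothing is read from this range. The differences of Hadha and Hadhb in TE fell to 0 with the limits on q and fold enrichment and in equal-sized lists. That of Crot in TE went from -75 to -25 with the limit on q and in equal-sized lists and to -50 with that on fold enrichment, and that of Slc25a20 from -75 to -50 with both limits. In WT TM against WT TE the promoter difference of Hadha fell from 75 to 25 with either limit and to 0 in equal-sized lists. For Slc25a20 it went there from -75 to -25 with the limit on q. It was -50 with the limit on fold enrichment and in equal-sized lists. No gene counted as different with all libraries changed direction, but the balance over the 9 genes other than Crot in TPdh-/- TM against WT TM did, from 4 and 0 genes to 1 and 5 without WT TM replicates 2 and 3. Same-numbered libraries had correlations of -0.10 to 0.23 in their deviations from group means, and differently numbered ones -0.16 to 0.19. These ranges overlap and cannot show whether the numbers mark pairs. With the replicate block the counts were 0, 0, 1 and 1, and the exact McNemar test cannot give a p below 0.125 with 4 pairs. Strength could not be compared for any of the 10 genes with all libraries, since none had a promoter peak in all 8, and its alternatives other than leaving out a library were for the same reason not run. What an unlisted peak means is limited, since the weakest peaks listed rest on 3 to 9 fragments.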
